A study of Glycine max with 14 samples.

Results

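The shift of soybean seed coats to the stage of 200–300 mg seed fresh weight was followed against the preceding stage of 100–200 mg in 4 RNA-Seq libraries of a series of 14. The 200–300 mg stage is held by 1 library of the black-seeded line RM30-R* and 1 of the brown-seeded line RM38-r, and the 100–200 mg stage by 1 library of each line as well. Both lines are isolines of the cultivar Clark with the i and T alleles and were grown in a greenhouse. RM30-R* carries R*, a stable black revertant of a mutable allele of the R locus that still holds the TgmR* transposon in an intron, and RM38-r carries the recessive r allele. The other 10 libraries come from the same lines at 300–400 mg and 400–500 mg while the cotyledons were still green, and from desiccating seeds of 300–400 mg. Seed coats were dissected from seeds sorted by fresh weight, and the labels do not say how many plants or seeds went into a library. The p-values of the 4 libraries set the stage change against its difference between 2 lines that differ at R. That spread is partly shared over models. They do not measure the spread between repeated harvests of 1 line.

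The comparison included every gene model with at least 0.5 RPKM, the reads of a model relative to its length and to all mapped reads, in at least 2 of the 4 libraries. These were 41712 of the 69425 gene models in the table, from 34199 of its 61337 loci. The mapped alignments numbered 76188576 in RM30-R* and 120239040 in RM38-r at 200–300 mg, against 100643235 in RM30-R* and 101625148 in RM38-r at 100–200 mg. The values given below are RPKM rescaled to equal 75th percentiles in the 4 libraries, with scale factors from 0.9682 to 1.027, and the changes are differences of log2(rescaled RPKM + 0.5), 200–300 mg minus 100–200 mg, which understate the change of weakly expressed models. A gene model was called when the adjusted p of limma, with line as a block, was under 0.05.

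The seed coat is maternal tissue around the embryo, and in soybean it is where the pigments that colour the seed are made. Anthocyanins and proanthocyanidins share the flavonoid pathway, in which chalcone synthase makes the first flavonoid skeleton, chalcone isomerase closes its ring, hydroxylases decorate it, dihydroflavonol reductase and anthocyanidin synthase turn it into coloured anthocyanidins, and glucosyltransferases and methyltransferases modify the product. The R locus encodes a MYB transcription factor of this pathway. The files carry no gene descriptions and the annotation at hand used other identifiers, with 0 of the gene models matched, so that only the flavonoid genes, the R gene with a related MYB, and a pair of transposase-related models could be named. Genes of the embryo, which touches the dissected tissue, could therefore not be looked for. The flavonoid genes themselves were present in all 4 libraries, with 84 to 80024 reads for each of the 12 models that entered the test.

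Most of the flavonoid genes analysed were lower at 200–300 mg. Of 15 models of the pathway and its regulators, 12 entered the test, 8 fell (CHS7, CHS8, F3'H, F3H, DFR2, ANS2, ANS3 and AOMT), 2 rose (CHI1A and UGT78K2) and DFR1 and UGT78K1 did not pass the test. Over all 41712 models tested, 22.9% were called lower and 16.8% higher. The median log2 change of the 12 models was -1.26, beside 0.0 over all models tested. The list is a part of the pathway genes that the study names, since CHI2, ANR1 and ANR2 were not analysed here, and its count and median hold for these models alone. The study picked the genes for their role in pigmentation, and the paired gene copies may share reads, so that the members are not independent of each other. The calls depended on the libraries in the fit. The fit to all 14 libraries called 4 of the models lower and 1 higher, none was called with either 100–200 mg library left out, and without the RM38-r library of 200–300 mg 5 were called lower and 1 higher, the changes themselves keeping their direction.

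**Figure D1:**
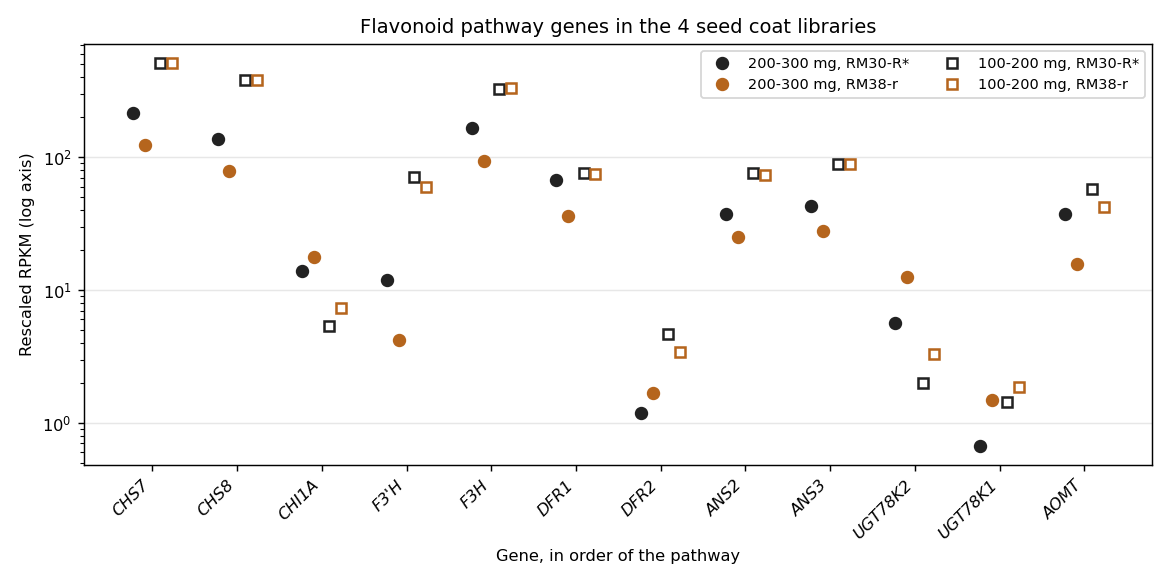
Rescaled RPKM (log axis) of the 12 flavonoid pathway models in the 4 libraries. Filled circles on the left of each gene are 200–300 mg and open squares on the right are 100–200 mg, with RM30-R* in black and RM38-r in brown. For CHS7 the 200–300 mg points lie at 215 and 123.96 and both 100–200 mg points above 500, and for CHI1A and UGT78K2 the order of the stages is the opposite.

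The first committed step showed the highest levels of the pathway and a clear drop. CHS7 (Glyma01g43880.1, chromosome 1), a chalcone synthase, had 215 (RM30-R*) and 123.96 RPKM (RM38-r) at 200–300 mg, against 507 (RM30-R*) and 510 RPKM (RM38-r) at 100–200 mg. CHS8 (Glyma11g01350.1, chromosome 11), a second chalcone synthase, had 137 (RM30-R*) and 78.4 RPKM (RM38-r) at 200–300 mg, against 381 and 383 RPKM at 100–200 mg. The 2 lines were nearly alike at 100–200 mg in both genes, and both libraries of 200–300 mg lay below them, with RM38-r lower than RM30-R*. The log2 change was -1.64 for CHS7 (standard error 0.27, limma adjusted p = 0.0119) and -1.88 for CHS8 (standard error 0.25, limma adjusted p = 0.00739). The chalcone synthases are a family of similar copies and the authors counted a read at each of its alignments up to a set limit, so part of the reads may have been counted for both.

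Chalcone isomerase changed in the other direction. CHI1A (Glyma20g38560.1, chromosome 20) had 13.8 (RM30-R*) and 17.6 RPKM (RM38-r) at 200–300 mg, against 5.41 (RM30-R*) and 7.34 RPKM (RM38-r) at 100–200 mg. Its log2 change was 1.24 (standard error 0.11, limma adjusted p = 0.00296), and the rise was of similar size in the lines, 1.27 in RM30-R* and 1.21 in RM38-r. The gene stayed between 11.1 and 17.2 RPKM in the 8 green libraries from 300 to 500 mg, above both libraries of 100–200 mg.

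The hydroxylases of the flavonoid rings included the largest fall of the pathway. F3'H (Glyma06g21920.1, chromosome 6), which adds a hydroxyl group to the B ring and so directs the pathway to cyanidin-type pigments, had 11.9 (RM30-R*) and 4.18 RPKM (RM38-r) at 200–300 mg, against 70.8 (RM30-R*) and 59.6 RPKM (RM38-r) at 100–200 mg. The log2 change was -3.11 (standard error 0.29, limma adjusted p = 0.00326). F3H (Glyma02g05450.1, chromosome 2), which hydroxylates the central ring of flavanones, had 165 (RM30-R*) and 93.1 RPKM (RM38-r) at 200–300 mg, against 326 (RM30-R*) and 329 RPKM (RM38-r) at 100–200 mg. Its log2 change was -1.40 (standard error 0.26, limma adjusted p = 0.0161), a smaller fall than that of F3'H in each of the lines. F3'5'H (Glyma13g04210.1, chromosome 13), the hydroxylase of delphinidin-type pigments, did not pass the filter on low values. It had 0.0785 (RM30-R*, from 9 reads) and 0.703 RPKM (RM38-r) at 200–300 mg, against 0.124 (RM30-R*, from 19 reads) and 0.176 RPKM (RM38-r, from 28 reads) at 100–200 mg. Before rescaling the value of RM38-r at 200–300 mg was 0.684 RPKM (95% Wilson interval 0.574 to 0.815, which covers counting error only), and the stages did not separate because RM30-R* had the lowest value at 200–300 mg.

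The late steps fell as well, but for 1 of the 2 reductases the fall did not pass the test. DFR1 (Glyma14g07940.1, chromosome 14), the more strongly expressed dihydroflavonol reductase, had 66.8 (RM30-R*) and 36.1 RPKM (RM38-r) at 200–300 mg, against 75.9 (RM30-R*) and 74.5 RPKM (RM38-r) at 100–200 mg. Its log2 change was -0.61 (standard error 0.23, limma adjusted p = 0.0995), made up of -0.18 in RM30-R* and -1.04 in RM38-r. DFR2 (Glyma17g37060.1, chromosome 17), expressed far less, had 1.20 (RM30-R*) and 1.69 RPKM (RM38-r) at 200–300 mg, against 4.70 (RM30-R*) and 3.44 RPKM (RM38-r) at 100–200 mg. Its log2 change was -1.23 (standard error 0.22, limma adjusted p = 0.0149), and it was the one gene of the 8 called lower whose fall was larger in RM30-R*.

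The 2 anthocyanidin synthases, the genes named in the title of the series, moved almost in step. ANS2 (Glyma01g42350.1, chromosome 1) had 37.1 (RM30-R*) and 24.8 RPKM (RM38-r) at 200–300 mg, against 75.8 (RM30-R*) and 73.7 RPKM (RM38-r) at 100–200 mg. ANS3 (Glyma11g03010.1, chromosome 11) had 43.2 (RM30-R*) and 27.6 RPKM (RM38-r) at 200–300 mg, against 88.5 (RM30-R*) and 88.9 RPKM (RM38-r) at 100–200 mg. The log2 change was -1.29 for ANS2 (standard error 0.17, limma adjusted p = 0.00697) and -1.35 for ANS3 (standard error 0.19, limma adjusted p = 0.00831). In RM30-R* both fell by 1.02 on the log2 scale.

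Of the genes that modify the finished pigment, 1 rose and 1 fell. UGT78K2 (Glyma08g07130.1, chromosome 8), a glucosyltransferase that attaches glucose to the anthocyanidin, had 5.61 (RM30-R*) and 12.4 RPKM (RM38-r) at 200–300 mg, against 2.00 (RM30-R*) and 3.29 RPKM (RM38-r) at 100–200 mg. Its log2 change was 1.53 (standard error 0.16, limma adjusted p = 0.00440). UGT78K1 (Glyma07g30180.1, chromosome 7), its homologue, had 0.674 (RM30-R*) and 1.49 RPKM (RM38-r) at 200–300 mg, against 1.43 (RM30-R*) and 1.87 RPKM (RM38-r) at 100–200 mg. The stages overlapped for UGT78K1, and its log2 change of -0.48 (standard error 0.18) did not pass the test (limma adjusted p = 0.0886). AOMT (Glyma05g36210.1, chromosome 5), an anthocyanin O-methyltransferase, had 37.2 (RM30-R*) and 15.6 RPKM (RM38-r) at 200–300 mg, against 58.0 (RM30-R*) and 41.8 RPKM (RM38-r) at 100–200 mg. Its log2 change was -1.02 (standard error 0.21, limma adjusted p = 0.0212), and it was called with line as a block but not without it.

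The regulators had few reads, and only R at 200–300 mg lay well above the limit of detection. R (Glyma09g36990.1, chromosome 9) had 27 reads in RM30-R* and 28 reads in RM38-r at 200–300 mg, against 0 reads in RM30-R* and 4 reads in RM38-r at 100–200 mg, where a count of 0 allows up to 3 reads, or 0.0588 RPKM. It did not pass the filter on low values, so its change was not tested in the main fit. The fit with no filter called 3 models of the pathway and its regulators higher, beside 2 in the main fit. Which model was added was not recorded. Glyma09g36966 (Glyma09g36970.1, chromosome 9), a related MYB gene, had 4 reads in each of the 200–300 mg libraries, against 0 reads in RM30-R* and 1 read in RM38-r at 100–200 mg. More reads of R were thus counted at the stage at which most of the flavonoid genes analysed were lower, at levels under 1 RPKM.

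The falls were larger in RM38-r than in RM30-R* for 7 of the 8 flavonoid genes called lower, and the median log2 change of the 12 models was -1.0 in RM30-R* and -1.47 in RM38-r. For F3'H the change was -2.53 in RM30-R* and -3.68 in RM38-r, and for F3H it was -0.98 in RM30-R* and -1.82 in RM38-r. The difference of the changes between the lines cannot be tested in 4 libraries, where it is the residual. It was tested in a fit over all 14 libraries, chosen after the data were seen, in which the repeated libraries of 300–400 mg and 400–500 mg supply the spread. No pathway gene was called as differing between the lines there (limma adjusted p = 1.0 for each of the 12). The standard errors of the difference ran from 0.34 (CHI1A) to 1.39 (AOMT). For CHS7 the difference was 0.80 (standard error 0.76), so the test could not show differences of this size. The smallest unadjusted p was 0.0507, for F3'H, with a difference of 1.16 (standard error 0.47), RM30-R* minus RM38-r.

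After 200–300 mg the pathway genes went on along different courses. In RM30-R* CHS7 was at 211 and 188 RPKM at 300–400 mg, near its level of 215 RPKM at 200–300 mg, whereas in RM38-r it was at 64.4 and 44.5 RPKM, below its 123.96 RPKM at 200–300 mg. The library with 64.4 RPKM was scaled up by more than the libraries of 100–200 mg and 200–300 mg. ANS2 had 12.9 and 18.1 RPKM in RM30-R* and 3.40 and 3.75 RPKM in RM38-r at 300–400 mg. DFR2 had 1.34 and 3.83 RPKM in RM30-R* at 400–500 mg, both above its 1.20 RPKM at 200–300 mg, and 0.260 and 0.403 RPKM in RM38-r. In the desiccating seed coats CHS7 was down to 19.2 (RM30-R*) and 20.03 RPKM (RM38-r). The 100–200 mg libraries held the highest value of all 5 stages in both lines for each of the 12 models except CHI1A and UGT78K2.

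**Figure D2:**
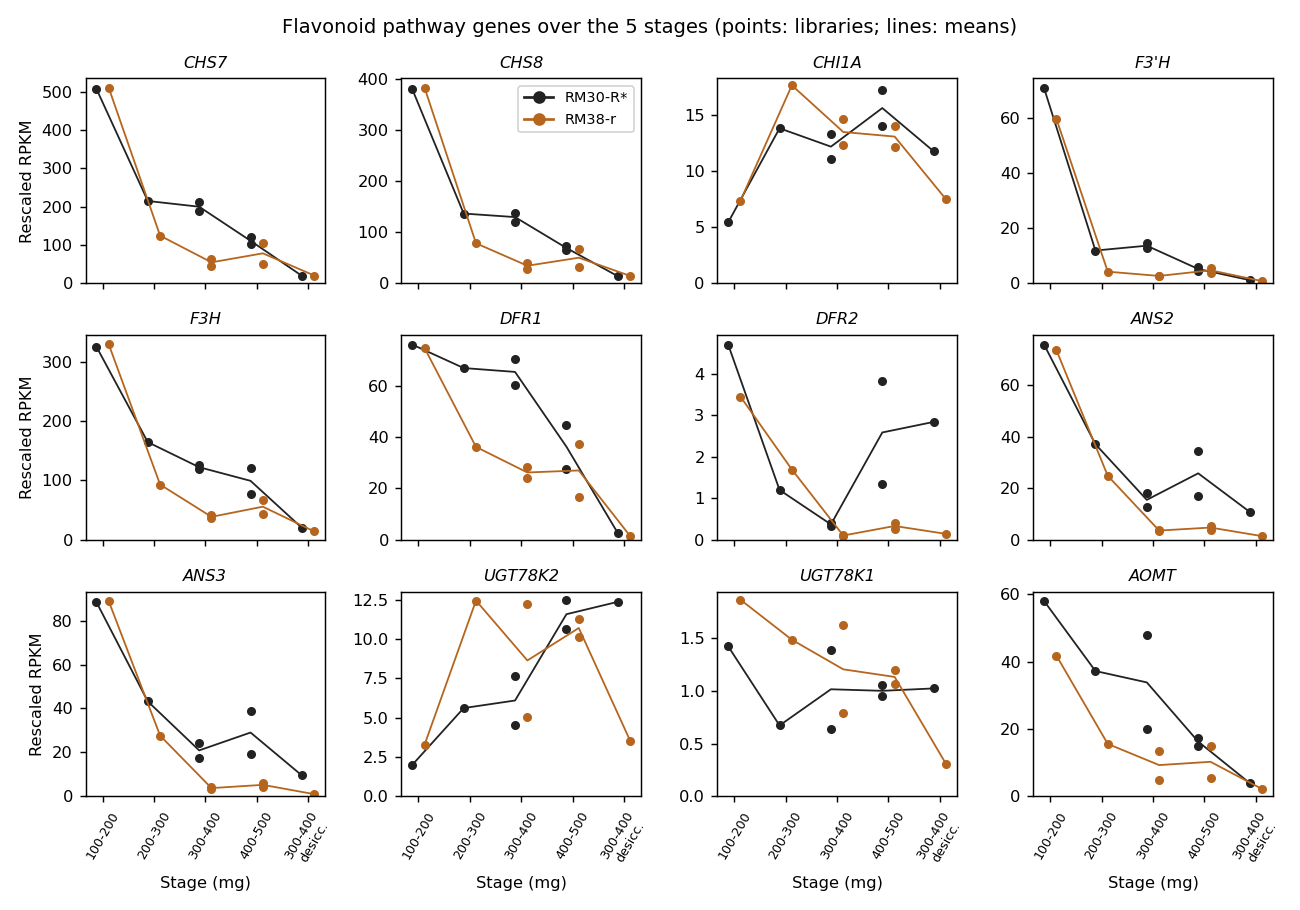
Rescaled RPKM of the 12 flavonoid pathway models over the 5 stages (mg seed fresh weight, from young to desiccating), with RM30-R* in black and RM38-r in brown. Points are libraries, 1 or 2 per line and stage, and lines join their means. CHS7 had 507 and 510 RPKM at 100–200 mg and at most 215 RPKM in every later library, and CHI1A had its lowest value in each line at 100–200 mg.

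Across all gene models, 6996 rose (16.8%) and 9557 fell (22.9%) at 200–300 mg by limma at an adjusted p under 0.05, while 21217 models passed 0.05 before adjustment. The fit has 1 residual degree of freedom, the spread being shared over models by limma's prior of 3.65 degrees of freedom, and the counts depend on each library. With the RM30-R* or the RM38-r library of 100–200 mg left out and no line block, 364 and 428 models were called higher and 2307 and 2480 lower, and without those of 200–300 mg 2690 and 1891 were called higher and 6051 and 4712 lower. A fit that took its spread from all 14 libraries called 4434 higher and 7250 lower. In each of these fits no model called here changed to a call in the other direction. The libraries of the 2 stages carry library numbers of different series, and no label gives a date or batch, so that a batch of this kind and the stage cannot be told apart. In whole seed coats, fewer cells of a type and less RNA per cell cannot be told apart either.

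By size rather than by test, 1321 models (3.17% of those tested) were at least 2-fold higher in both lines and 4091 (9.81%) at least 2-fold lower in both. All of them were also called by limma, which used the same 4 libraries, so that this adds no separate support. The excess of lower over higher models held for larger changes, with 221 models at least 4-fold higher and 1095 at least 4-fold lower in both lines, and 34 at least 16-fold higher and 137 at least 16-fold lower. At 64-fold or more the numbers were equal, 9 and 9. The excess depends on the scaling. With quantile normalization, 1767 models were at least 2-fold higher in both lines and 3143 lower, so that 36.0% of them were higher, beside 24.4% here, and limma called 8053 higher and 7570 lower. Of the 2-fold models, 1852 of the lower and 212 of the higher passed the filter only through the stage where they are high. Without these, 1109 models were at least 2-fold higher in both lines and 2239 lower. The counts at 4-fold and more were not computed without them.

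The change was similar in the 2 lines. The direction of change was the same in both lines for 83.4% of the models, and the changes in RM30-R* and RM38-r were correlated across the 41712 models (Pearson's r = 0.89, Spearman's rho = 0.84, given as a description, since gene models are not independent and each line contributes 1 library to each stage). Among the models at least 2-fold lower in both lines, the median log2 change was -1.61 in RM30-R* and -1.77 in RM38-r, and the fall was larger in RM38-r for 60.4% of them. Among those at least 2-fold higher it was 1.49 in RM30-R* and 1.54 in RM38-r, with the rise larger in RM38-r for 54.4%. Only 24 models changed at least 2-fold in opposite directions, 8 of them up in RM30-R* and down in RM38-r. The fit over 14 libraries called 16 models (0.0384% of those tested) as changing differently in the lines and had 887 with an unadjusted p under 0.05, but without a variance trend it called 0.

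**Figure D3:**
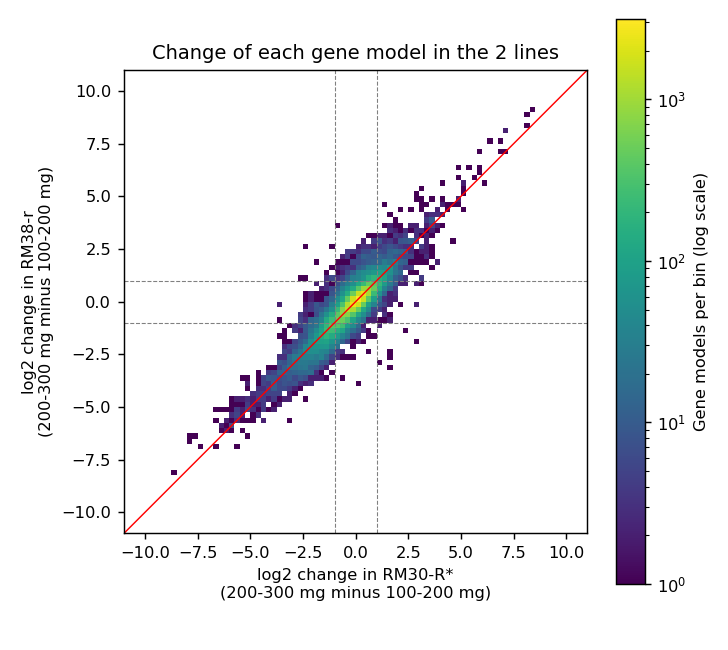
The log2 change (200–300 mg minus 100–200 mg) of the 41712 tested gene models in RM30-R* (horizontal) and RM38-r (vertical). Colour gives the number of models per bin of 0.25 by 0.25 on a log scale, the red line marks equal change and the dashed lines mark 2-fold. The cloud follows the line of equal change (r = 0.89) and reaches 8.31 up and -8.63 down in RM30-R*.

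The 12 loci with the largest rise, among those with at least 5 RPKM in the higher stage, had log2 changes from 5.74 to 8.77, with 48.9 to 3481 RPKM at 200–300 mg, against 0.197 to 42.12 RPKM at 100–200 mg. The 12 with the largest fall had log2 changes from -8.37 to -6.07, with 0 to 8.149 RPKM at 200–300 mg, against 28.7 to 1240 RPKM at 100–200 mg. Glyma02g04820.1 (chromosome 2) had 220 (RM30-R*) and 480 RPKM (RM38-r) at 200–300 mg, against 0.197 (RM30-R*) and 0.304 RPKM (RM38-r) at 100–200 mg. These 100–200 mg values rest on 23 reads in RM30-R* and 37 reads in RM38-r, and the log2 change was 8.77 (standard error 0.24, limma adjusted p = 0.000518). Glyma05g38110.1 (chromosome 5) had 529 (RM30-R*) and 929 RPKM (RM38-r) at 200–300 mg, against 1.34 (RM30-R*) and 2.14 RPKM (RM38-r) at 100–200 mg, a log2 change of 8.31 (standard error 0.13, limma adjusted p = 0.000518). Both were higher in RM38-r than in RM30-R* at 200–300 mg and again at 300–400 mg, where Glyma02g04820.1 had 32.4 and 83.8 RPKM in RM30-R* and 651 and 1159 RPKM in RM38-r. The 651 RPKM come from the library of 300–400 mg that was scaled up by clearly more than the 4 libraries compared.

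In the other direction, Glyma03g04390.1 (chromosome 3) had 0.166 (RM30-R*) and 0.126 RPKM (RM38-r) at 200–300 mg, against 264 (RM30-R*) and 172 RPKM (RM38-r) at 100–200 mg. Its 200–300 mg values rest on 11 reads in RM30-R* and 13 reads in RM38-r, and the log2 change was -8.37 (standard error 0.16, limma adjusted p = 0.000518). Glyma13g08880.1 (chromosome 13) had 0.399 (RM30-R*) and 0.877 RPKM (RM38-r) at 200–300 mg, against 225 (RM30-R*) and 142 RPKM (RM38-r) at 100–200 mg, a log2 change of -7.33 (standard error 0.31, limma adjusted p = 0.000834). The fall of Glyma03g04390.1 lasted, with at most 3.53 RPKM in any later library, while Glyma13g08880.1 had 24.6 and 14.3 (RM30-R*) and 0.0748 and 0.550 RPKM (RM38-r) at 300–400 mg, and was at 59.1 RPKM in 1 of the 2 RM30-R* libraries of 400–500 mg and at 2.45 RPKM in the other.

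In RPKM, the largest single gain and loss were sought among the models called and changed at least 2-fold in both lines. The largest gain was a model on chromosome 9 with 5989 (RM30-R*) and 6972 RPKM (RM38-r) at 200–300 mg, against 188.3 (RM30-R*) and 244.1 RPKM (RM38-r) at 100–200 mg. The largest single loss was a model on chromosome 10 with 1748 (RM30-R*) and 724.1 RPKM (RM38-r) at 200–300 mg, against 7097 (RM30-R*) and 6186 RPKM (RM38-r) at 100–200 mg. The models called higher made up 24.8% of the summed RPKM in RM30-R* and 27.1% in RM38-r at 200–300 mg, against 11.1% in RM30-R* and 12.2% in RM38-r at 100–200 mg. Those called lower made up 8.93% in RM30-R* and 7.21% in RM38-r at 200–300 mg, against 26.2% in RM30-R* and 24.3% in RM38-r at 100–200 mg. These shares describe models chosen by the same contrast. Of the 100 most abundant models of each library, 76 were shared by the lines at 200–300 mg and 90 at 100–200 mg, and between the stages 69 were shared in RM30-R* and 58 in RM38-r.

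The 2 sets of at least 2-fold changed models were also followed through the later stages. Their medians are a description, since the sets were chosen on their 100–200 mg and 200–300 mg values and 1852 of the lower models passed the filter through the 100–200 mg libraries alone, as 212 of the higher models did through the 200–300 mg libraries. The median of the 1321 higher models was 9.32 (RM30-R*) and 9.79 RPKM (RM38-r) at 200–300 mg, against 2.31 and 2.29 RPKM at 100–200 mg. In the 10 later libraries it lay between 5.66 and 11.4 RPKM. The median of the 4091 lower models was 0.591 (RM30-R*) and 0.447 RPKM (RM38-r) at 200–300 mg, against 4.03 (RM30-R*) and 3.75 RPKM (RM38-r) at 100–200 mg, and it lay between 0.226 and 0.779 RPKM in the later libraries. Over all tested models the median lay between 4.402 and 4.90 RPKM in the 14 libraries.

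**Figure D4:**
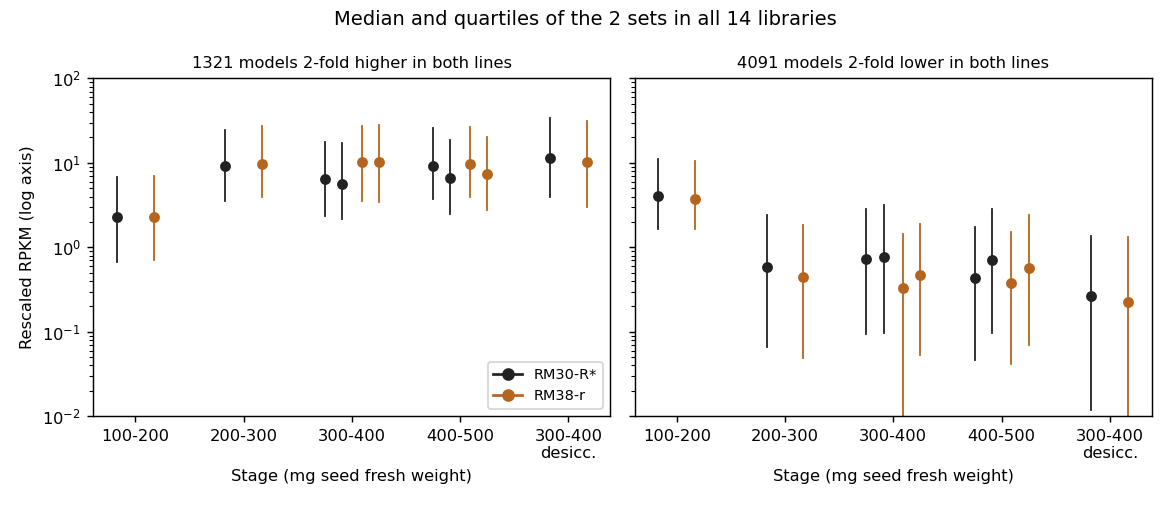
Median rescaled RPKM (points, log axis) with lower and upper quartiles (vertical lines) of the 1321 models at least 2-fold higher (left) and the 4091 at least 2-fold lower (right) in both lines, in each of the 14 libraries by stage, RM30-R* in black and RM38-r in brown. A line that runs off the lower edge has its lower quartile at 0. In the 10 libraries after 200–300 mg the medians were 5.66 to 11.4 RPKM on the left and 0.226 to 0.779 RPKM on the right.

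The share called lower was highest among weakly expressed models. Of the 5665 models with a mean under 1 RPKM over the 4 libraries, 42.9% were called lower and 9.94% higher. Of the 2918 models from 30 to 100 RPKM, 12.7% were called lower and 25% higher, and of the 704 models of 100 RPKM or more 18.5% were lower and 17.2% higher. The median log2 change ran from -0.41 in the class under 1 RPKM to 0.17 in the class from 30 to 100 RPKM. Quantile normalization moved the weakest class to 1462 lower and 1151 higher models, beside 2433 lower and 563 higher here. The filter was passed by 3228 models through the 100–200 mg libraries alone, of which 2901 were called lower, and by 626 through the 200–300 mg libraries alone, of which 487 were called higher, in each case the stage where they are high. The shares by class include these models and were not computed without them. Without these models 6509 were called higher and 6656 lower, and 1109 were at least 2-fold higher and 2239 at least 2-fold lower in both lines. With no filter at all 6136 models were called higher and 11259 lower. The numbers changed at least 2-fold in both lines were again 1321 and 4091, which carries no information on the filter. With 0.5 added to each value, a 2-fold change in both lines needs about 0.5 RPKM in both libraries of the higher stage. Such models pass the filter in nearly every case.

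Fewer gene models were detected at 200–300 mg. At least 0.5 RPKM, before rescaling, was reached by 38242 models in RM30-R* and 37805 in RM38-r at 200–300 mg, against 41276 in RM30-R* and 41501 in RM38-r at 100–200 mg. The mapped total was the lowest of the 4 in the RM30-R* library and the highest in the RM38-r library of 200–300 mg, and its part in these numbers was not tested. Models of at least 10 RPKM were about as many at both stages, 12048 in RM30-R* and 12011 in RM38-r at 200–300 mg, against 12084 in RM30-R* and 12305 in RM38-r at 100–200 mg.

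The length of the gene model moved with the direction of change too. Of the 8235 shortest models, from 100 to 783 nt, 39.4% were called lower and 12.9% higher, and of the 8216 longest, of 2103 nt or more, 11.5% were lower and 20.3% higher. Among models with a mean of at least 10 RPKM, 27.2% of the shortest class were lower and 22.4% higher, and 9.27% of the longest class were lower and 23.3% higher. The length was recovered from the RPKM steps of 41078 of the tested models. The shares by length include models that passed the filter through a single stage and were not computed without them. The part of length and of level in the calls was not tested.

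**Figure D5:**
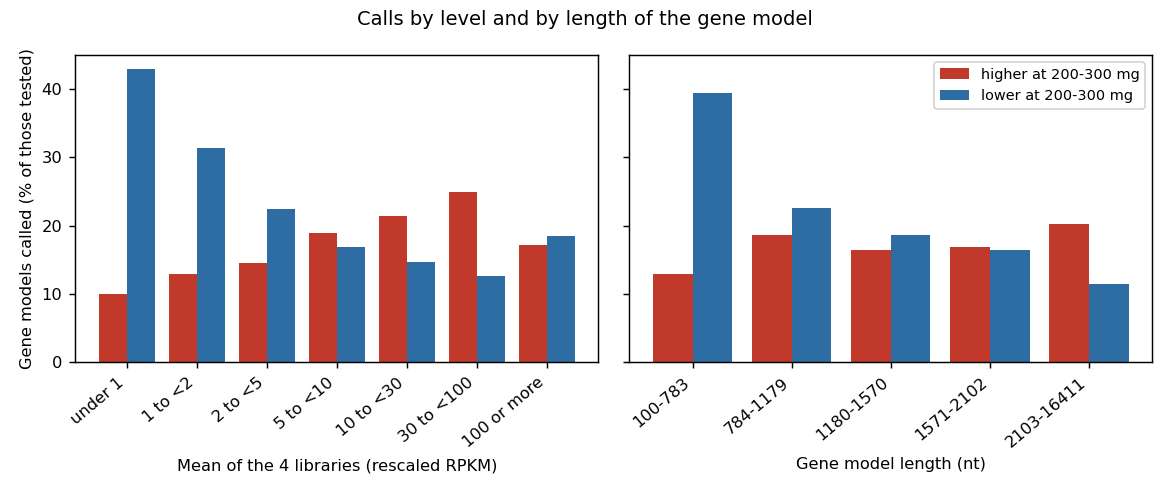
Share of the tested gene models called higher (red, left bar) and lower (blue, right bar) at 200–300 mg, by the mean of the 4 libraries (left panel, rescaled RPKM) and by the length of the gene model in nt (right panel, 5 classes with similar numbers of models). The share called lower was 42.9% under 1 RPKM and 12.7% from 30 to 100 RPKM, and 39.4% in the shortest and 11.5% in the longest class. The shares include models that passed the filter through a single stage.

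The study described a pair of models related to the tnp2 transposase family. Transposases of this family act on CACTA elements, the class of the transposon in the R* allele. Glyma05g23600.1 (chromosome 5) had 1.31 (RM30-R*) and 1.13 RPKM (RM38-r) at 200–300 mg, against 2.06 (RM30-R*) and 1.72 RPKM (RM38-r) at 100–200 mg, a log2 change of -0.47 (standard error 0.14, limma adjusted p = 0.0524). Glyma15g21480.1 (chromosome 15) had 1.13 (RM30-R*) and 0.981 RPKM (RM38-r) at 200–300 mg, against 1.77 (RM30-R*) and 1.49 RPKM (RM38-r) at 100–200 mg, a log2 change of -0.45 (standard error 0.14, limma adjusted p = 0.0590). Both lay lower at 200–300 mg in both lines, and neither passed the test. Their read counts were nearly the same, 524 for Glyma05g23600.1 and 520 for Glyma15g21480.1 in RM30-R* and 700 and 703 in RM38-r at 200–300 mg, and as a read was counted at each of its alignments up to a set limit, and discarded beyond it, these 2 values may rest on the same reads and leave out reads of highly repeated sequence.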

How the data were processed

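RNA from seed coats was sequenced on the Illumina HiSeq2000. The deposited values are RPKM, which the authors made by aligning single reads with Bowtie (version 1 per the labels) to the Glyma1 gene models, counting a read at each of its alignments up to a set limit, discarding reads with more alignments, and scaling the counts to the length of the model and to the total mapped in each library. Reads shared by similar genes are therefore counted for each, which could not be undone. The table held 69425 complete gene models, 1 incomplete line was left out, and 0 value columns belonged to no library. The gene models, lists and comparisons were chosen with earlier results of these data known. A count model was not used as the main test, since the deposited values are RPKM. The reads recovered from them, described below, count a read at each of its alignments up to that limit.

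Columns were rescaled to the 75th percentile of the 60230 models above 0 in any of the 4 libraries, models with at least 0.5 RPKM in 2 libraries were kept, and log2(rescaled RPKM + 0.5) was fitted with limma 3.58.1 in R 4.3.3 (line and stage as terms, variance trend, Benjamini-Hochberg adjustment, two-sided). The 2 libraries of a line were paired by the line itself, and the deviations of the RM30-R* libraries from their stage means correlated at 0.32 across models. Whole reads were recovered from the RPKM steps for 54875 of 54882 models with values in at least 5 libraries (tolerance 0.02 reads), which gave the mapped alignments, model lengths and 95% Wilson intervals. Reads are PCR products without molecular identifiers, so intervals and floors cover counting error only. Named genes are the flavonoid pathway and transposase-related models that the study names and, of the models without a description, the 2 of largest rise and the 2 of largest fall among those called, changed at least 2-fold in both lines and with at least 5 RPKM in the higher stage. Lists of genes by description, including embryo markers, were void, because no description could be matched to the gene models. Alternatives were other pseudocounts, filters and scalings, no line block, no variance trend, the first model of each locus, all 14 libraries, and each library left out.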

Additional observations from a re-analysis of the deposited data

Results flagged for a closer look

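The test of the difference between RM30-R* and RM38-r in the fit over 14 libraries called 16 gene models (limma adjusted p from 0.0450). Of these, 13 were listed at 0 in both libraries of 200–300 mg and 15 were under 0.3 RPKM in every library after 100–200 mg, with at most 14.5 RPKM at 100–200 mg. For these 15 the repeated libraries that supply the spread lay near the floor. Their calls rest on 1 library per line at 100–200 mg and cannot show that the lines differ. In 8 of the 16 the fall was larger in RM38-r and in 8 in RM30-R*. A further 24 gene models changed at least 2-fold in opposite directions in the 2 lines, each with 1 library per line and stage. The test of the difference in the fit over 14 libraries called 0 of the 24 (smallest limma adjusted p = 0.130), and 11 of them had an unadjusted p under 0.05.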

How the results depend on the processing

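The counts of models called higher or lower and of models changed at least 2-fold in both lines stayed within 1.5 times their values under other pseudocounts, filters and scalings, without the line block, without the variance trend and with the first model of each locus, where each could be computed. For the 2-fold counts, leaving out the filter, the block or the trend was no check. The block and trend do not enter them, and the filter hardly can. The fit to all 14 libraries called 4434 models higher, and 1 pathway model higher and 4 lower. With 1 library left out, 364 to 2690 models were called higher and 2307 to 6051 lower, 0 to 2 pathway models higher and 0 to 9 lower, and the pathway median was -1.60 to -1.0 on the log2 scale. These fits have fewer libraries and assume that the single library left at a stage varies like the pair at the other stage; the cause of the other differences was not tested. The difference between the lines was called in 0 models without the variance trend and in 27 with a pseudocount of 1. Among the single genes named, no change of direction occurred. Settings other than a left-out library ended 6 calls, 5 of them in the fit to all 14 libraries (DFR2, ANS2, ANS3, UGT78K2 and AOMT) and 1 without the line block (AOMT), and added 3. Left-out libraries ended 24 calls and added 1. The comparisons of 2-fold change use both lines and were not computed with a library left out.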

Other observations

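Gene models of 1 locus were rarely called in opposite directions. Over all models tested, 39.7% were called in either direction. Of the 5292 loci with 2 or more tested models, 1507 had all of them called in the same direction, 309 had some called and some not, and 3475 had none called. In 1 locus, on chromosome 9, models were called in opposite directions. Its model of 516 nt had 0.103 (RM30-R*) and 0 RPKM (RM38-r) at 200–300 mg, against 7.54 (RM30-R*) and 4.73 RPKM (RM38-r) at 100–200 mg, with a log2 change of -3.56 (standard error 0.16, limma adjusted p = 0.000874). Its model of 2099 nt had 14.5 (RM30-R*) and 17.3 RPKM (RM38-r) at 200–300 mg, against 11.4 (RM30-R*) and 11.0 RPKM (RM38-r) at 100–200 mg, with a log2 change of 0.48 (standard error 0.13, limma adjusted p = 0.0401). Models of 1 locus share sequence and therefore reads, so that their calls are not independent.

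Runs of neighbouring loci, in the order of their names, were looked at for loci changed at least 2-fold in both lines. How many runs the number of changed loci alone would give was not computed, so the runs are given as values only. A run of 4 loci on chromosome 14 had 7.494 to 49.98 RPKM in RM30-R* and 8.149 to 49.2 RPKM in RM38-r at 200–300 mg, against 221 to 2731 RPKM in RM30-R* and 166.5 to 2200 RPKM in RM38-r at 100–200 mg. A run of 4 on chromosome 9 had 4.499 to 22.29 RPKM in RM30-R* and 10.17 to 103.5 RPKM in RM38-r at 200–300 mg, against 0.7223 to 3.776 RPKM in RM30-R* and 1.071 to 10.94 RPKM in RM38-r at 100–200 mg. Neighbours can be copies of each other that share reads, which was not tested. The calls were spread over all 20 chromosomes, with 14.1% to 18.9% of the models of a chromosome called higher and 19.2% to 27.5% called lower.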
